A study of Mus musculus with 23 samples.

Results

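Genes of protein folding in the endoplasmic reticulum (ER) were described in colon RNA of mice that carried or lacked the receptor Fn14, with and without chronic colitis. The group comprised 10 genes listed by name for their role, with earlier results of these data known: Hspa5, Hsp90b1, Calr, Pdia4, Pdia6, Dnajb9, Dnajc3, Sdf2l1, Herpud1 and Creld2. Of 45101 probe sets on the array, 22 named 1 of these genes alone. Each gene was read from the probe set with the highest mean over 23 arrays, so that the 10 genes were 10 of 18194 genes tested. All values are deposited log2 expression values, and a difference of 1 on this scale is a doubling.

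The study profiled colons of BALB/c mice by oligonucleotide array, 1 array per sample. Untreated mice gave 5 wild-type arrays and 5 arrays of the Fn14 knockout, and mice with colitis gave 6 wild-type and 7 knockout arrays. Colitis was induced with TNBS, which modifies proteins of the gut wall so that they provoke an immune response once ethanol has opened the barrier. The rectal dose, 0.2% TNBS in saline and ethanol under anaesthesia, went up from 1 to 2 ul per g during 6 weeks, and the tissue was harvested 3 days after the final dose. Fn14, encoded by Tnfrsf12a, is the receptor of the cytokine TWEAK, and the labels name the knockout without saying how it was made or in which cells. Age, sex, litter and any injection given to the untreated groups are not described in the labels, so a TNBS effect may include that of the solvent and the handling. Separate mice are not stated for the numbered samples either, and p-values therefore measure the spread between these samples.

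Secreted and membrane proteins fold in the ER with the help of chaperones and of enzymes that form disulfide bonds. When unfolded proteins accumulate, the sensors IRE1, PERK and ATF6 start the unfolded protein response, which raises transcription of these helpers and of genes that remove misfolded proteins. Goblet cells and plasma cells of the colon secrete large amounts of mucin and antibody and depend on this machinery. Many chaperone promoters carry an ER stress response element (ERSE), which is bound by ATF6 and XBP1 together with NF-Y.

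The letters of this element, or of its variant ERSE-II, are shown for the 7 genes that had them. Since chaperone promoters are known to carry the element, the matches are a description and not a test. The 250 bases before each annotated start were searched on both strands in RefSeq promoters of assembly GRCm38.p6, in which all 10 genes were found. ERSE was read as CCAAT and CCACG with 9 bases of any kind between them, and ERSE-II as ATTGG and CCACG with 1 base between, so that they share the CCACG letters. UPRE, the unfolded protein response element, was read as TGACGTGG. Capitals mark the matched motif, and a match that reads CGTGG to ATTGG lies on the opposite strand.
Hspa5: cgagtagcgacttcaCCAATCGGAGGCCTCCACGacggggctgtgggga
Hsp90b1: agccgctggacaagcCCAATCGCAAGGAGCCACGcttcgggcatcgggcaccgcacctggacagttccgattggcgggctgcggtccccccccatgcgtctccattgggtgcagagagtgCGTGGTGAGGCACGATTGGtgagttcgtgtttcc
Calr: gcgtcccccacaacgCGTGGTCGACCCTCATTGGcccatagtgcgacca
Pdia6: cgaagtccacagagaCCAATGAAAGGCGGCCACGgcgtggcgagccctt
Dnajc3: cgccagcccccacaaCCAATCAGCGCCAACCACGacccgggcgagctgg
Creld2: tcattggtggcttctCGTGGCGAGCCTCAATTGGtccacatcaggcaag
Herpud1: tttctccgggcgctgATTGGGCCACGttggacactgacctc

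These stretches lie upstream of the gene starts, at chr2:34772010-34772058 (plus strand) for Hspa5 and chr10:86705518-86705671 (minus strand) for Hsp90b1. They lie at chr8:84847060-84847108 (minus) for Calr, chr12:17266476-17266524 (plus) for Pdia6 and chr14:118937812-118937860 (plus) for Dnajc3. Those of Creld2 and Herpud1 lie at chr15:88819505-88819553 (plus) and chr8:94386362-94386402 (plus). The ERSE letters stood in 6 of the 10 promoters and in 35 of 27025 genes in the table (0.13%). Hsp90b1 held 2 copies. The ERSE-II letters stood in Herpud1 and in 10 genes of the table (0.037%), and the UPRE letters in none of the 10 and in 163 genes (0.603%). None of the 3 motifs was found in this window of Pdia4, Dnajb9 or Sdf2l1, which says only that these letters are not in it.

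Facts of the whole set of arrays that touch these genes are few. Tnfrsf12a read 6.65 ± 0.516 and 7.35 ± 0.506 (SD) in wild type without and with TNBS, and 4.11 ± 0.059 and 4.06 ± 0.11 in the knockout, which matched the labelled genotypes. The mean of 12 colon epithelium markers lay between 12.62 and 12.96 on every array. Pancreatic acinar transcripts were present on more than 1 array: the mean of 8 such markers was 9.62 on wild type with TNBS number 6, 7.6 on number 3 of that group and 4.99 on untreated knockout number 5, and 3.07 to 3.38 on the others. Of the untreated knockout arrays, numbers 4 and 5 were the lowest in their group for most of the 10 genes. For the 10 genes, calls that rest on these 4 arrays are given below with and without them. Wild-type TNBS arrays 3 and 6 were left out singly and never together. Most results of other gene lists, and the correlations, are given with all arrays only.

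**Figure D1:**
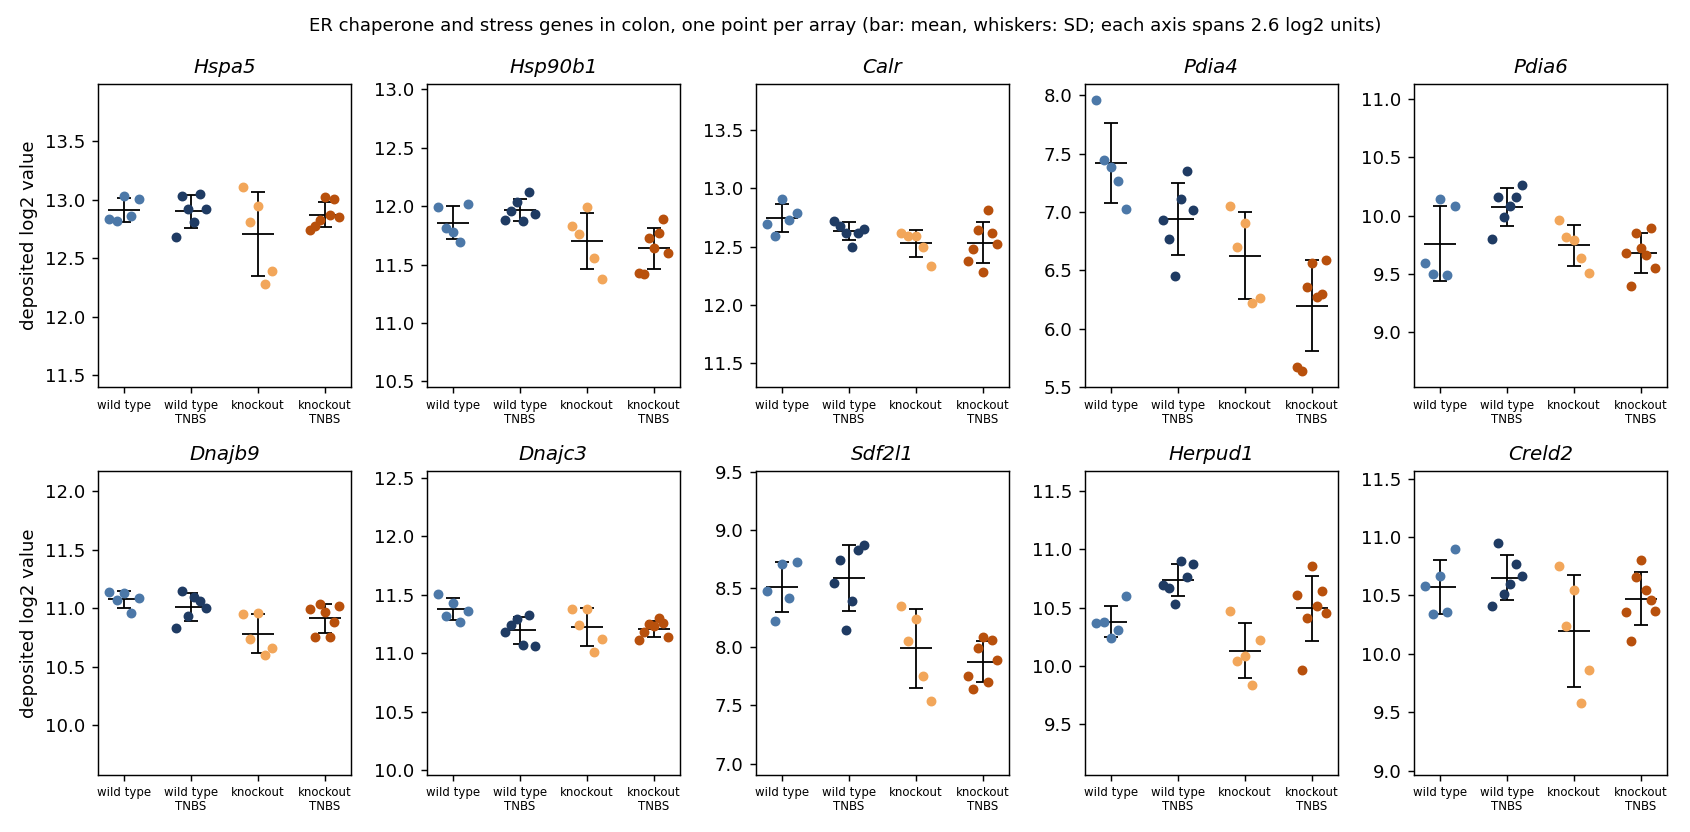
Deposited log2 value (vertical axis, 2.6 log2 units in every panel) of the 10 genes on each of 23 arrays by group (horizontal axis), with the mean as a bar and the SD as whiskers. Sdf2l1 with TNBS reads from 8.14 upwards in wild type and up to 8.08 in the knockout, while the groups of Hspa5 overlap throughout.

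When both genotypes had received TNBS, 4 of the 10 genes were lower in the knockout and 6 did not pass. Sdf2l1, Pdia4, Pdia6 and Hsp90b1 fell, 1.64-fold, 1.67-fold, 1.32-fold and 1.26-fold, and none of the 10 rose. Sdf2l1 alone also passed with a plasma cell or skeletal muscle covariate, and a second probe set of Hsp90b1 did not show the fall. In the knockout without TNBS Pdia4 and Dnajb9 were lower, 1.73-fold and 1.23-fold. TNBS itself moved none of the 10 past the threshold in either genotype. The threshold was an adjusted p of 0.05 from limma, adjusted over all 18194 genes.

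In the comparison of the genotypes with TNBS, 4 of the 10 genes passed, all lower, and 10.5% of all genes passed (6.72% lower and 3.73% higher). The median log2 change of the 10 was -0.21, against -0.012 over the 13519 genes that stood above the lowest deposited value on all arrays. Estimates were below 0 for 9 of the 10 genes and for 54% of those 13519 genes. The 10 genes vary together within groups, as shown further on, and are not 10 independent observations.

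Sdf2l1 encodes a small ER protein that works with BiP, the product of Hspa5, and keeps its substrates from aggregating. Without TNBS its 5 wild-type arrays read 8.48, 8.22, 8.71, 8.42 and 8.73, and its 5 knockout arrays 8.35, 8.05, 8.24, 7.75 and 7.54. With TNBS wild type ranged from 8.14 through a median of 8.65 to 8.87, and the knockout from 7.64 through 7.89 to 8.08. With TNBS every knockout array was thus below every wild-type array, whereas without TNBS the highest knockout arrays reached into the wild-type range. The change with TNBS was -0.72 ± 0.14 (SE, 95% confidence interval -1.01 to -0.42, adjusted p = 0.00275). Groups without overlap in this comparison were found for 1 of the 10 genes and for 3.63% of all genes. Without TNBS the change was -0.53 ± 0.16 and missed the threshold (adjusted p = 0.0624), but it passed with median centring (-0.58, adjusted p = 0.0358) and with dim genes left out (adjusted p = 0.0337). It passed as well without wild-type TNBS array 3 and without untreated knockout array 1. The order of its group means was wild type with TNBS (8.59), wild type (8.51), knockout (7.99) and knockout with TNBS (7.87). The upper pair differed by 0.08 ± 0.15 and the lower pair by -0.11 ± 0.15, both within their spread.

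Hspa5 encodes BiP, the Hsp70 chaperone of the ER and the protein that holds the stress sensors inactive. It read 12.82 to 13.03 in wild type and 12.68 to 13.05 in wild type with TNBS. The knockout spanned 12.28 to 13.11 without TNBS and 12.74 to 13.02 with it. All 4 groups overlapped, and the low end of the untreated knockout came from arrays 4 and 5, at 12.28 and 12.39. With TNBS the genotypes differed by -0.03 ± 0.11 with an interval of -0.25 to 0.19, so a fall of the size seen for Sdf2l1 lies outside the interval. Its second informative probe set ranged from 12.34 to 13.04, and the third stood at or near the lowest deposited value of 2.17.

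Dnajb9 (ERdj4) and Dnajc3 (p58IPK) encode J-domain partners of BiP, the first of them also acting in the repression of IRE1. Dnajb9 read 11.14, 11.07, 11.13, 10.96 and 11.09 in untreated wild type and 10.95, 10.74, 10.96, 10.6 and 10.66 in the untreated knockout. The highest knockout arrays came up to the lowest wild-type array without crossing it. Before TNBS the difference was -0.29 ± 0.08 (adjusted p = 0.0317), and with TNBS it was -0.1 ± 0.07 (adjusted p = 0.442). Whether these differ was tested, and the difference of 0.2 ± 0.1 missed the threshold (adjusted p = 0.369). Dnajc3 lay between 11.01 and 11.51 on all arrays. In wild type it read 11.38 ± 0.0973 without and 11.19 ± 0.112 with TNBS (SD), a change of -0.18 ± 0.07 that did not pass (adjusted p = 0.0661). Of its other 4 probe sets, 1 passed for the same comparison at -0.32 ± 0.09 (adjusted p = 0.0182, over all probe sets) and the rest gave -0.28 to 0.09.

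Hsp90b1 encodes GRP94, the Hsp90 chaperone of the ER, whose clients include integrins and Toll-like receptors. With TNBS its wild-type arrays ranged from 11.87 through 11.95 to 12.12 and its knockout arrays from 11.42 through 11.64 to 11.89. Knockout array 6 reached into the wild-type range and the other 6 lay below it. The change was -0.33 ± 0.09 (adjusted p = 0.0272). Its second probe set disagreed: it gave 0.11 ± 0.1 for the same comparison (adjusted p = 0.626), and with the mean of both probe sets Hsp90b1 did not pass (-0.11, adjusted p = 0.498). Calr encodes calreticulin, which binds calcium and folds glycoproteins by their sugars. It spanned 12.28 to 12.91 over all arrays and passed in no comparison, with -0.22 ± 0.08 in the untreated knockout (adjusted p = 0.134). Of its other 2 probe sets, 1 gave -0.43 ± 0.14 there with no overlap of the groups (11.52 to 11.94 against 11.97 to 12.47, adjusted p = 0.093 over all probe sets) and 1 gave -0.22 ± 0.1. With TNBS these 2 gave -0.02 ± 0.12 and -0.1 ± 0.09.

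Pdia4 and Pdia6 encode protein disulfide isomerases, which make and rearrange disulfide bonds, and Creld2 encodes a stress-induced ER protein with such an activity. Pdia4 read 7.96, 7.45, 7.39, 7.27 and 7.03 in untreated wild type and 7.05, 6.7, 6.91, 6.22 and 6.26 in the untreated knockout. With TNBS wild type ranged from 6.45 through 6.98 to 7.35 and the knockout from 5.64 through 6.3 to 6.59. Without TNBS 1 knockout array (7.05) stood above the lowest wild-type array, and with TNBS 2 knockout arrays (6.56 and 6.59) did. Knockout TNBS arrays 1 and 2 were the lowest of all 23, at 5.67 and 5.64. The changes were -0.79 ± 0.22 without TNBS (adjusted p = 0.0462) and -0.74 ± 0.2 with it (adjusted p = 0.0194). The TNBS effect on Pdia4 did not pass in either genotype, at -0.48 ± 0.21 in wild type (adjusted p = 0.144) and -0.43 ± 0.21 in the knockout (adjusted p = 0.226). The group means of Pdia4 fell in the order wild type (7.42), wild type with TNBS (6.94), knockout (6.63) and knockout with TNBS (6.2). Its other probe set stood at 2.17 on all arrays and carries no information.

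Pdia6 read 9.49 to 10.14 in untreated wild type, which took in all 5 untreated knockout arrays (9.51 to 9.96). With TNBS wild type read 9.8 to 10.26 (median 10.12) and the knockout 9.4 to 9.89 (median 9.68). The genotypes with TNBS overlapped between 9.8 and 9.89 and differed by -0.4 ± 0.12 (adjusted p = 0.0319). Without TNBS they differed by -0.01 ± 0.13. The difference between these values, -0.39 ± 0.18, did not pass (adjusted p = 0.286). A second, dim probe set of Pdia6, with group means of 2.4 to 2.66, gave -0.15 ± 0.1 with TNBS (adjusted p = 0.445). For the difference of TNBS effects that probe set gave 0.08 ± 0.15. Creld2 spanned 9.58 to 10.95 and passed in no comparison, although its untreated knockout mean was 10.19 ± 0.48 (SD) against 10.57 ± 0.232 in wild type. The wide knockout spread came from arrays 4 and 5, at 9.58 and 9.86, with the other 3 between 10.24 and 10.75.

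Herpud1 encodes an ER membrane protein that organises the degradation of misfolded proteins. Its untreated wild-type arrays read 10.37, 10.38, 10.24, 10.31 and 10.6, and with TNBS wild type ranged from 10.53 through 10.72 to 10.9. In the knockout its arrays ranged from 9.84 to 10.47 without TNBS and from 9.97 through 10.51 to 10.86 with it. In wild type 1 untreated array lay above the lowest TNBS array, and in the knockout the ranges overlapped widely. The estimates were alike, 0.36 ± 0.13 in wild type (adjusted p = 0.0578) and 0.36 ± 0.12 in the knockout (adjusted p = 0.0705), and both missed the threshold. Its second probe set gave 0.29 ± 0.11 and 0.34 ± 0.1.

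**Figure D2:**
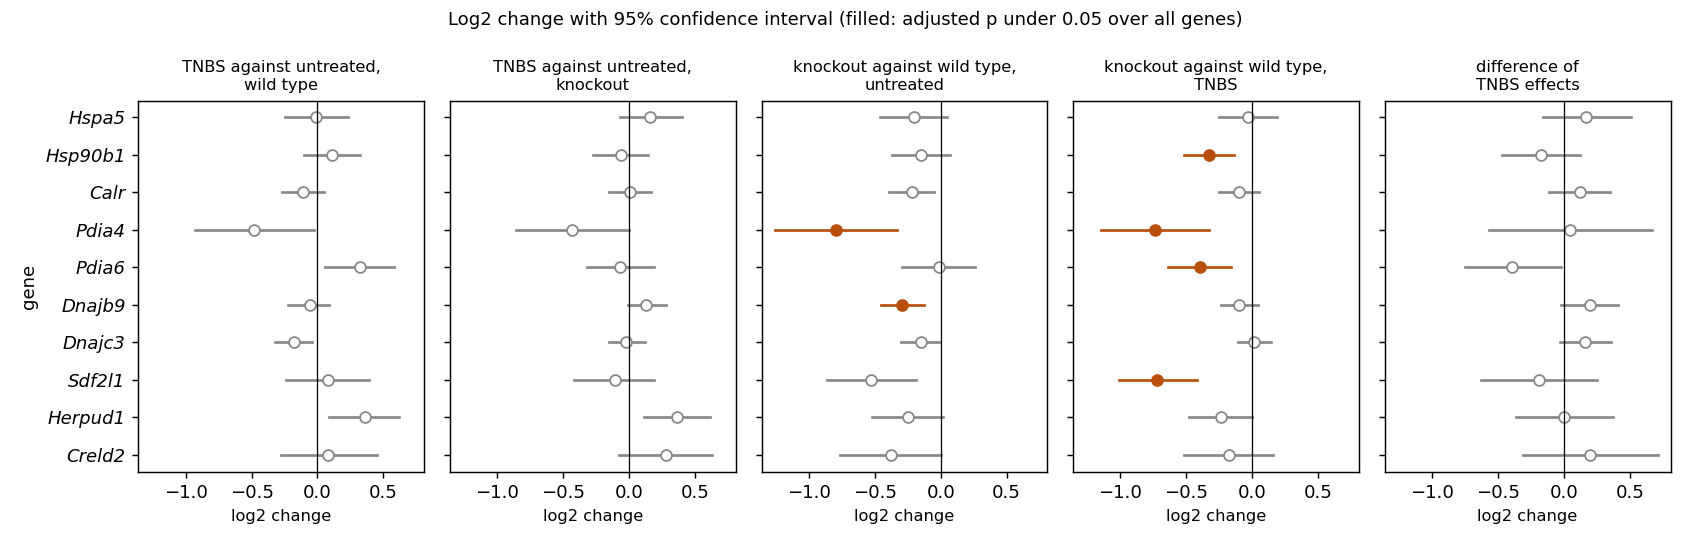
Log2 change (horizontal axis) of the 10 genes with the 95% confidence interval in 5 comparisons, filled where the adjusted p over all genes is under 0.05. With TNBS 4 genes are filled on the lower side in the knockout, from -0.33 for Hsp90b1 to -0.74 for Pdia4, and none is filled for TNBS in either genotype.

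For TNBS in wild type, 0 of the 10 genes passed in limma and 4 had an unadjusted p under 0.05, with 16.5% of all genes past the threshold (10.2% higher and 6.27% lower). The 10 changes ran from -0.48 for Pdia4 to 0.36 for Herpud1, 5 above and 5 below 0, with a median of 0.03. Alternative analyses passed up to 4 of them, and those were not the same genes. Quantile normalization passed Pdia4 (-0.61, lower) and Herpud1 (0.37, higher), and centring each array on its median passed Calr, Pdia4, Dnajb9 and Dnajc3, all lower. Centring moved every change in this comparison by -0.17, and with it Herpud1 read 0.19 (adjusted p = 0.161). For TNBS in the knockout, 0 of the 10 passed, 1 had an unadjusted p under 0.05 and 8.55% of all genes passed (4.08% higher and 4.47% lower). These changes ran from -0.43 for Pdia4 to 0.36 for Herpud1 with a median of 0. With array weights, or with dim genes left out, Herpud1 alone passed in the knockout.

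For the genotypes without TNBS, 2 of the 10 genes passed, both lower, against 4.83% of all genes (2.92% higher and 1.91% lower). All 10 estimates were below 0, with a median of -0.23, against 43.6% of the genes above the lowest value. Without untreated knockout arrays 4 and 5, a choice made after seeing the data, neither Pdia4 (-0.53 ± 0.24, adjusted p = 0.304) nor Dnajb9 (-0.19 ± 0.08, adjusted p = 0.246) passed. Neither passed without untreated wild-type array 1, 2 or 3, or without knockout array 2, 4 or 5, each left out alone. Of 37 alternative analyses Pdia4 passed in 15 and Dnajb9 in 25. The 37 include those that left out 1 TNBS array, which could change the shared spread but not these estimates. When the TNBS effect was compared between genotypes, 0 of the 10 passed in limma, 1 had an unadjusted p under 0.05 and 2.00% of all genes passed (0.621% higher and 1.37% lower). No alternative passed any of the 10 there.

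The comparison of the genotypes with TNBS depended on single arrays for all but Sdf2l1. Untreated arrays are not part of it and enter only through the spread that all groups share. Leaving out untreated knockout arrays 4 and 5 thus could not move its estimates, and the 4 calls stayed. Sdf2l1 passed in each of 37 alternative analyses, at -0.8 to -0.6 (adjusted p 0.00112 to 0.0335). Pdia4 passed in 34 of 37, and Hsp90b1 and Pdia6 each in 27. The 37 include each analysis that left out only untreated arrays, where the estimates were fixed. Without wild-type TNBS array 5, Sdf2l1 was the 1 gene left (-0.67, adjusted p = 0.00917), and without knockout TNBS array 2 or 7, Pdia4 and Sdf2l1 were left. Of the wild-type TNBS arrays with acinar transcripts, leaving out number 6 lost Pdia6 (-0.36 ± 0.12, adjusted p = 0.0766) and leaving out number 3 lost Hsp90b1 (-0.31 ± 0.1, adjusted p = 0.0542). Sdf2l1 read -0.66 without number 6 and -0.8 without number 3. Pdia6 was also lost without wild-type TNBS array 2 or 4 (adjusted p = 0.0546 in both), and Hsp90b1 without knockout TNBS array 1 (adjusted p = 0.0558). With arrays centred on their medians, Pdia4 (-0.65) and Sdf2l1 (-0.63) passed and Hsp90b1 (-0.24) and Pdia6 (-0.31) did not.

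**Figure D3:**
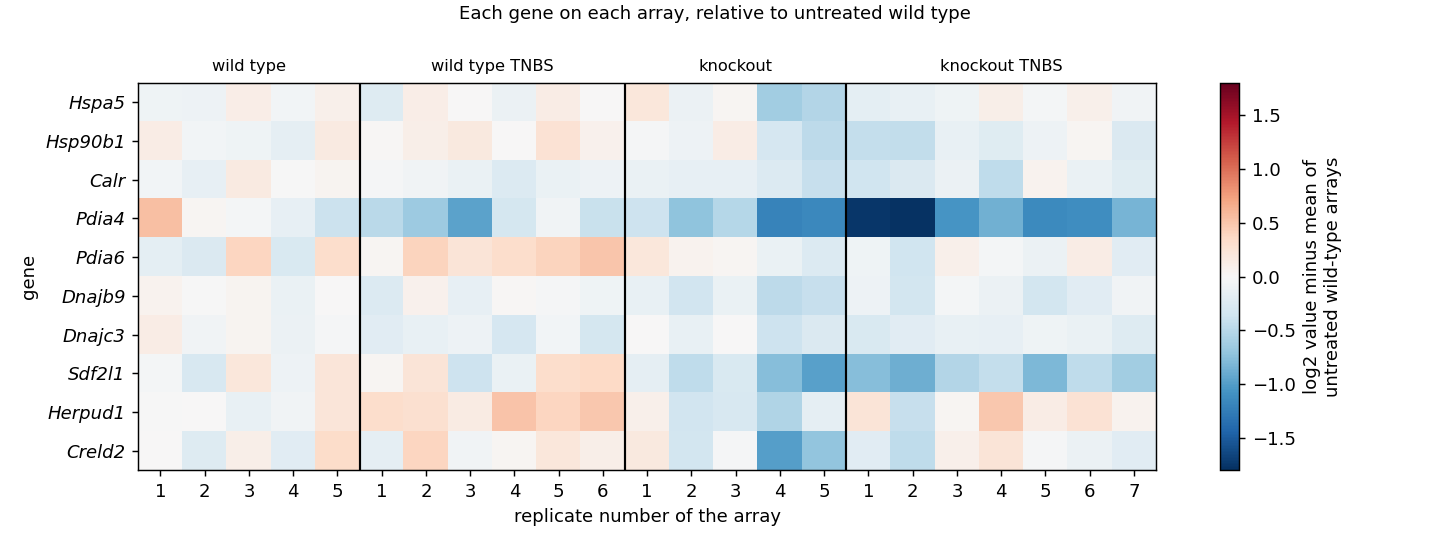
Log2 value of each gene (rows) on each array (columns, by group and replicate number) minus the mean of the 5 untreated wild-type arrays, from blue (lower) to red (higher). Pdia4 and Sdf2l1 are blue on all 7 knockout TNBS arrays, and untreated knockout arrays 4 and 5 are blue for most genes.

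In whole tissue, fewer cells of a type and less RNA per cell cannot be told apart, and markers of other cell types moved with the same comparisons. The mean of 9 measured plasma cell markers ranged from 7.82 to 8.02 in wild type, 8.64 to 8.86 in wild type with TNBS, 7.09 to 7.72 in the knockout and 7.88 to 8.94 in the knockout with TNBS. It was lower in the untreated knockout than in untreated wild type (exact permutation p = 0.00794, adjusted over 20 tests 0.0227), and with TNBS the difference did not pass (p = 0.0542, adjusted 0.0903, exact permutation test). Of the 9 markers, 3 passed as lower without TNBS: Mzb1 at -1.2 ± 0.3, Pou2af1 at -0.88 ± 0.24 and Jchain at -0.35 ± 0.08. None of these 3 passed without untreated knockout array 4, without arrays 4 and 5, or with the 2 groups alone. Of 37 alternative analyses Mzb1 passed in 29, Pou2af1 in 27 and Jchain in 32. With TNBS 0 of 9 passed in limma and 4 had an unadjusted p under 0.05. With the plasma cell mean as a covariate, Sdf2l1 with TNBS read -0.61 ± 0.16 (adjusted p = 0.0335), Pdia4 -0.62 ± 0.22, Pdia6 -0.28 ± 0.12 and Hsp90b1 -0.27 ± 0.11, of which Sdf2l1 passed. Without TNBS neither Pdia4 (-0.61 ± 0.28) nor Dnajb9 (-0.25 ± 0.1) passed with that covariate.

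The mean of 12 skeletal muscle markers was higher in the knockout, at 5.34 to 7.76 against 2.82 to 4.62 without TNBS (exact permutation p = 0.00794, adjusted 0.0227) and 4.67 to 7.98 against 2.92 to 6.86 with it (adjusted 0.062, exact permutation test). With it as a covariate, Sdf2l1 with TNBS read -0.6 ± 0.16 (adjusted p = 0.0309), and Pdia4, Pdia6 and Hsp90b1 did not pass (-0.61, -0.36 and -0.28). The goblet cell mean of 12 markers with TNBS was 12.96 ± 0.0351 in wild type and 12.87 ± 0.0413 in the knockout (SD, adjusted 0.0173, exact permutation test). The 3' minus 5' signal of Gapdh, a measure of RNA integrity and labelling, was 1.06 ± 0.0725 and 0.943 ± 0.0307 (adjusted 0.0173, exact permutation test). The part of goblet cells and of RNA quality in the values of the 10 genes was not tested. Markers of some other cell types were lower too in the knockout with TNBS. There 9 of 10 macrophage, 7 of 9 mast cell and 5 of 9 fibroblast genes passed as lower, against 6.72% of all genes. Their mean levels lay at 8.47 to 9.64 against 9.53 to 10.38 (macrophage), 6.55 to 7.77 against 7.96 to 8.77 (mast cell) and 10.52 to 10.9 against 10.78 to 11.36 (fibroblast). Of 8 B cell genes 0 passed in limma there and 0 had an unadjusted p under 0.05. Without TNBS all 10 macrophage estimates were also below 0, with a median of -0.59. There 0 passed in limma and 9 had an unadjusted p under 0.05. These cell types were not used as covariates. Their part was not tested either.

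Other genes of the same pathways were compared between the genotypes with TNBS, where 6.72% of all genes passed as lower and 3.73% as higher. Of 25 further ER chaperones and folding enzymes, 3 fell and none rose: Fkbp11, a proline isomerase abundant in secretory cells, by 0.77 ± 0.18 (SE, log2, adjusted p = 0.00876), Ero1b by 0.27 ± 0.08 and Pdia5 by 0.27 ± 0.08. The median change of the 25 was -0.12. Of 37 alternative analyses Fkbp11 passed in 35, Ero1b in 22 and Pdia5 in 15. Neither Ero1b nor Pdia5 passed with quantile normalization or with median centring. Of 36 genes of the translocon, N-glycosylation and vesicle transport, 10 fell and none rose, with a median of -0.11. Among these, Spcs3 of the signal peptidase changed by -0.33 ± 0.05 (adjusted p = 0.000537), Sec61a1, the channel itself, by -0.26 ± 0.05 and Lman1, a cargo receptor, by -0.27 ± 0.05. With median centring 5 of the 36 fell, and with quantile normalization 9. Of 20 genes of ER-associated degradation, 3 fell: Edem2, Selenos and Erlec1. Erlec1 read -0.27 ± 0.07, but 0.075 with the mean of its probe sets (adjusted p = 0.447).

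The sensors and transcription factors of the unfolded protein response came next. Of 13 such genes, 0 passed in limma in any of the comparisons of 2 groups, and 4, 1, 2 and 1 had an unadjusted p under 0.05 for TNBS in wild type, TNBS in the knockout, and the genotypes without and with TNBS. With median centring 4 of the 13 were called lower for TNBS in wild type, and other alternatives called at most 1. Xbp1, whose spliced form drives chaperone transcription, read 11.04 ± 0.153, 11.17 ± 0.121, 11.08 ± 0.128 and 11.25 ± 0.152 (SD) in wild type, wild type with TNBS, knockout and knockout with TNBS. Its splice forms were not told apart here. Of 25 genes of the PERK branch and targets of ATF4 and CHOP, 8 fell in the knockout with TNBS, among them Ddit4 by 0.54 ± 0.07 (adjusted p = 9.33e-05), Wars by 0.42 ± 0.09 and Atf4 itself by 0.26 ± 0.06. Several of these, such as Wars and Ddit4, also answer to amino acid supply, interferon or hypoxia signals.

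In wild type given TNBS, 13 of these 25 genes rose and 1 fell, with a median of 0.28, where 10.2% of all genes passed as higher and 6.27% as lower. Psat1, which makes serine, rose by 0.93 ± 0.17 and Wars, a tRNA synthetase, by 0.58 ± 0.1. Of the 25 further chaperones and folding enzymes 7 rose, with Fkbp11 at 1.03 ± 0.19 (adjusted p = 0.0011), Sil1 at 0.46 ± 0.1 and Ero1a at 0.33 ± 0.07. Of the 20 degradation genes 6 rose and 1 fell, with Edem1 at 0.47 ± 0.07 (adjusted p = 6.52e-05) and Derl3 at 0.95 ± 0.24. Derl3 read 1.17 ± 0.23 in the knockout given TNBS. Of the 36 translocon and transport genes 10 rose. These counts turned with the scaling: with median centring, 2 chaperones rose and 6 fell, 2 degradation genes rose and 10 fell, and 7 ATF4 targets rose and 4 fell. The mean of 13 squamous epithelium markers moved in the same comparison, from 3.35 to 4.35 on the untreated arrays to 4.6 to 7.26 with TNBS (adjusted 0.0173, exact permutation test). With it as a covariate, 4 chaperones, 2 ATF4 targets, 1 degradation gene and 2 translocon genes rose and 1 degradation gene fell. With the plasma cell mean as a covariate no gene of these lists passed for TNBS in wild type, in a fit that passed 179 genes in all. In the knockout given TNBS, 2, 1, 3 and 2 genes of the chaperone, ATF4, degradation and translocon lists rose and none fell. These are counts of 25, 25, 20 and 36 genes, where 4.08% of all genes passed as higher and 4.47% as lower. The TNBS comparison in wild type and the genotype comparison with TNBS share the 6 wild-type TNBS arrays, so the rises here and the lower knockout values above are not independent.

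**Figure D4:**
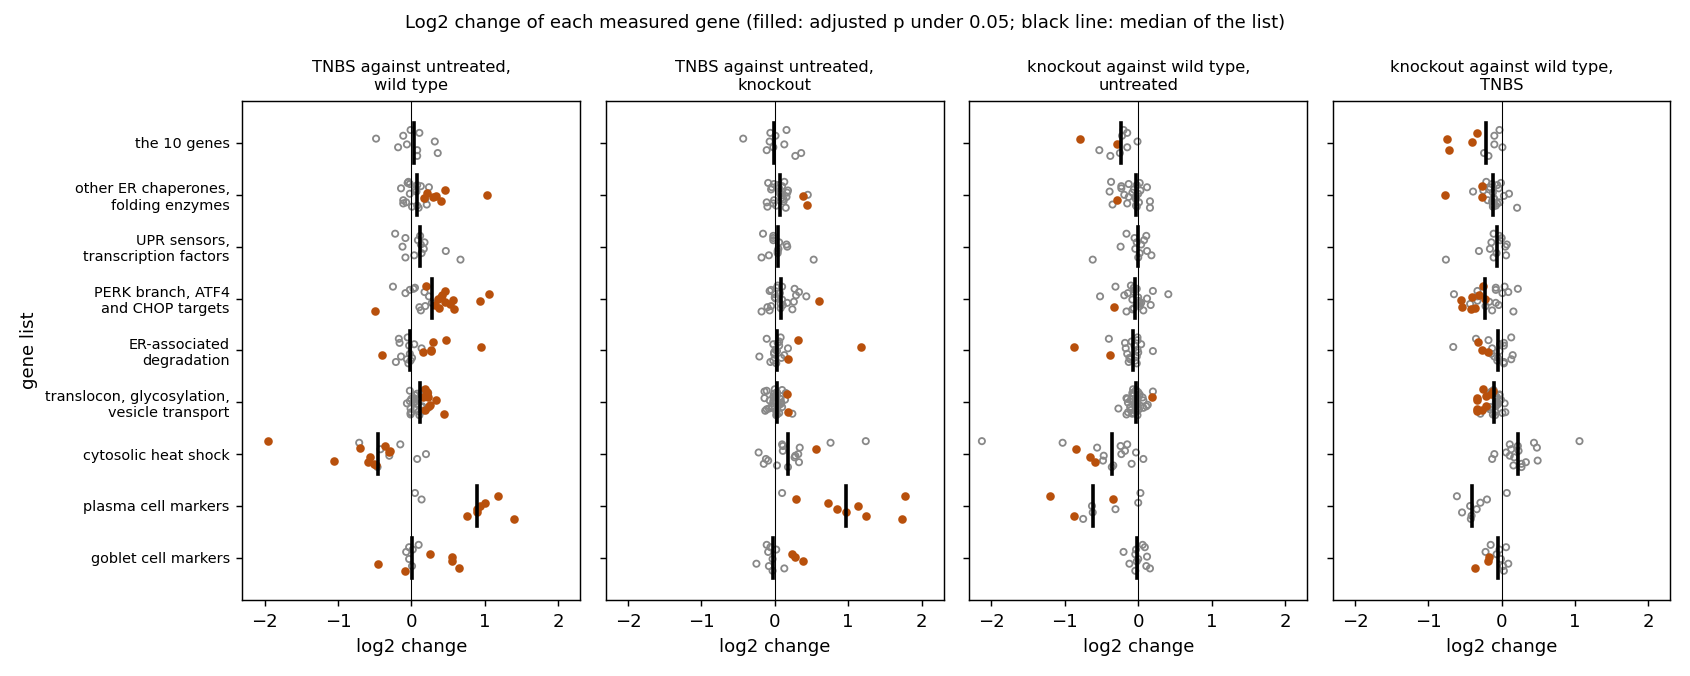
Log2 change (horizontal axis) of each measured gene of 9 lists in 4 comparisons, filled where the adjusted p is under 0.05, with the list median as a black line. In the knockout against wild type with TNBS the 10 genes have a median of -0.21 and the ATF4 and CHOP targets of -0.23, and cytosolic heat shock genes lie at 0.22 with none filled.

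Cytosolic heat shock genes, which answer to HSF1, were looked at beside the 10, with no test between the lists. Their list also holds Hspd1 and Hspe1, whose proteins work in mitochondria. Of 17, 10 fell with TNBS in wild type (median -0.46) with Hspa4l at -1.06 ± 0.2, against 6.27% of all genes. In the untreated knockout 3 fell, against 1.91% of all genes. Alternatives gave 0 to 15 and 0 to 6 lower, and leaving out 1 array 4 to 12 and 1 to 6. Untreated knockout array 4 had a heat shock mean of 10.19, with 10.71 to 11.34 on the rest of its group. Without it, or without arrays 4 and 5, Dnajb1 and Chordc1 still passed as lower in the untreated knockout and Dnaja1 did not. With TNBS 0 of 17 passed between the genotypes in limma, 7 had an unadjusted p under 0.05, and the median was 0.22. With median centring 4 of them were called higher. Chordc1 (0.92) and Dnajb1 (0.99) passed for the difference between genotypes in the TNBS effect, where 0.621% of all genes passed as higher.

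The genes with the ERSE letters other than the 6 described were looked at in the same way. Of 13 measured, 2 fell in the knockout with TNBS, Adcy3 by 0.81 (adjusted p = 0.000884) and Ero1b, against 6.72% of all genes. The median was -0.01, and it includes 4930402F11Rik, Acnat2, Ptgdr2 and Tdrd9, which read 0. The 4 that also stand in the pathway lists read -0.66 (Derl3, limma adjusted p = 0.0607), -0.35 (Syvn1), -0.27 (Ero1b) and -0.01 (Canx). Among the 10 genes, Hsp90b1 and Pdia6 fell and hold the letters, while Sdf2l1 and Pdia4 fell without them in this window. The other 4 with the ERSE letters did not pass: Hspa5 (-0.03), Calr (-0.1), Dnajc3 (0.01) and Creld2 (-0.18).

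Within groups, most of the 10 genes tended to rise and fall together over the 23 arrays. After each group mean was subtracted, Pearson's r over 23 arrays was above 0 for 43 of 45 pairs and above 0.5 for 23, with a median of 0.5 and a range of -0.19 to 0.89. The median r of each gene with all genes lay between -0.04 and 0.02. Hspa5 and Creld2 were the closest pair (0.89), and Calr and Herpud1 the most distant (-0.19). These values are a description, since arrays share labelling, tissue makeup and scaling. The untreated knockout had the widest spread of Hspa5 and Creld2, with SDs of 0.358 and 0.48. No r was computed without its arrays 4 and 5, so how far the r values rest on them was not tested.

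**Figure D5:**
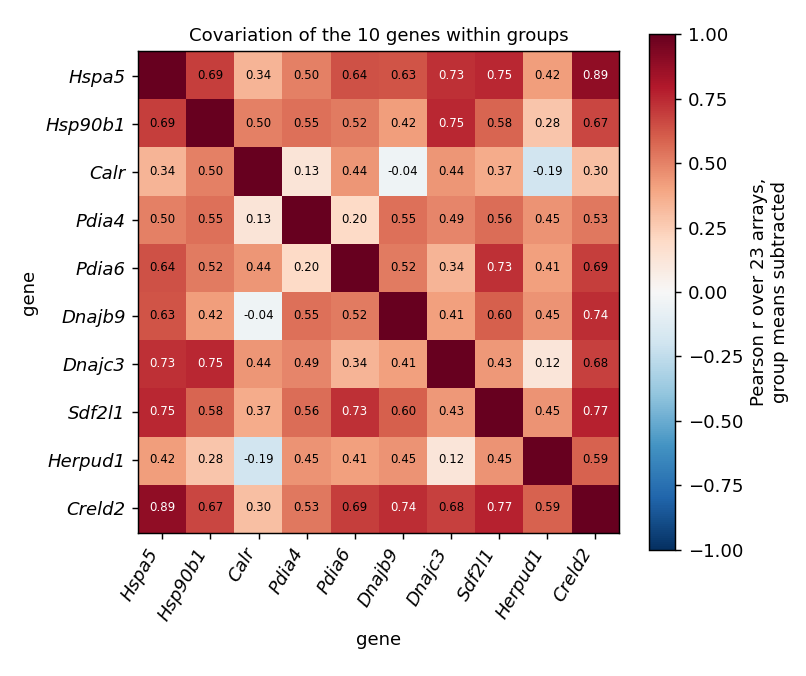
Pearson's r over 23 arrays between each pair of the 10 genes (both axes) after subtraction of group means, from blue (-1) to red (1). Hspa5 and Creld2 reach 0.89, and Calr with Herpud1 is lowest at -0.19.

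The genes most like each of the 10 by the same measure were partly ER genes. Manf, a secreted ER stress protein, was closest to Creld2 (0.94) and to Hspa5 (0.91) and was second for Sdf2l1 (0.87). Sdf2l1 was closest to Ranbp1 (0.9) and also to Dnajb11 (0.86), a J-domain protein of the ER. Pdia6 was closest to Lrrc59 (0.87), an ER membrane protein, with Fkbp11 at 0.85. Dnajc3 was closest to Hsp90aa1 (0.81) and Dnajb9 to Vps36 (0.8), while Hsp90b1 was closest to H2-DMa (0.79). The closest genes of Calr (Rexo1, 0.83), Pdia4 (Gtf2ird1, 0.77) and Herpud1 (Mak16, 0.81) stood in none of the lists. Array by array, untreated knockout array 1 was on average 0.28 above its group mean over the 10 genes and arrays 4 and 5 were 0.26 and 0.24 below. Knockout TNBS array 2 was 0.25 below its group mean and lowest for 7 of the 10 genes. In the other 2 groups no array was more than 0.14 from its group mean on average.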

How the data were processed

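Biotin-labelled cRNA made from total RNA of 23 colon samples was hybridised to 1 array each, per the labels' protocols. The authors deposited normalized log2 values, with RMA and GCRMA listed among the tools in the submitters' processing notes. Neither the choice between them nor a version could be read there. These values ran from 2.17 to 15.98, 27.9% stood at the lowest value, and no arrays were identical. Gene names came from the array annotation dated 2016, in which 34958 probe sets named 1 gene (34754 matched GRCm38.p6 RefSeq for current symbols), 932 several and 9211 none. Groups came from the sample titles.

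Group means were modelled for all genes at once with limma 3.58.1 in R 4.3.3 (19 residual and 0.475 prior degrees of freedom), 5 contrasts were tested, and p-values were Benjamini-Hochberg adjusted over 18194 genes with a threshold of 0.05. Single values per array were compared by two-sided exact permutation tests. The procedure was tested on simulated data. The number of arrays limits the precision. The 10 genes and the gene lists were chosen with earlier results of these data known. Every probe set of the 10 was tested. Other genes were named from the 4 with the smallest p of each list in the comparison described, or from the 5 most alike of each gene. Xbp1, Adcy3, the other genes with the ERSE letters and the genes named because of a difference in TNBS effect or a turned sign were chosen after their values were seen. Promoters were RefSeq sequences of GRCm38.p6. The alternatives used robust fitting with a trend, array weights, only the 2 groups compared, quantile normalization, median centring, probe sets averaged per gene or tested singly, a filter and a floor at log2 5, the replicate number as a block, 3 covariates and leaving out each array. Figures used matplotlib 3.10.9.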

Additional observations from a re-analysis of the deposited data

Results flagged for a closer look

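None of the 10 genes passed limma's test of a difference between genotypes in the TNBS effect (1 had an unadjusted p under 0.05), and in 40 tests of a group for a single distant array none was found. Of 146 genes of the pathway lists, 5 differed in their TNBS effect, knockout minus wild type, by limma's interaction term. Over all genes 2.00% passed this test (0.621% higher and 1.37% lower). Spcs3, a signal peptidase subunit, differed by -0.4 (adjusted p = 0.0137): it rose by 0.33 ± 0.06 in wild type and read -0.07 ± 0.05 in the knockout. Sec63, which couples the translocon to BiP, differed by -0.35 (adjusted p = 0.0347), with 0.21 ± 0.06 and -0.14 ± 0.06. Ube2g2, a ubiquitin-conjugating enzyme of ER-associated degradation, differed by 0.52 (adjusted p = 0.0424), with -0.4 ± 0.09 and 0.13 ± 0.09. Among cytosolic heat shock genes Chordc1 differed by 0.92 (adjusted p = 0.0176), with -0.59 ± 0.14 and 0.33 ± 0.14, and Dnajb1 by 0.99 (adjusted p = 0.0432), with -0.42 ± 0.18 and 0.56 ± 0.17. Of 36 alternative analyses, Spcs3 and Chordc1 each passed in 35, Sec63 in 21, Ube2g2 in 15 and Dnajb1 in 14.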

How the results depend on the processing

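No called change of the 10 genes turned its sign under any alternative. Estimates that were called in neither fit turned 78 times, in 21 results of at most 0.28 in size. For TNBS in wild type, where 0 passed, array weights and quantile normalization each gave 2, median centring 4, and the 2 groups alone and dim genes left out each gave 1. Leaving out untreated knockout arrays 4 and 5 together, an alternative chosen after seeing the data, also gave 1 (Dnajc3). For TNBS in the knockout, where 0 passed, array weights and dim genes left out gave 1. For the untreated knockout, where 2 passed, the 2 groups alone, the plasma cell covariate, the skeletal muscle covariate and leaving out arrays 4 and 5 gave 0, every probe set, the floor at log2 5 and the squamous covariate gave 1, and median centring and dim genes left out gave 3, with Sdf2l1 added. For the knockout with TNBS, where 4 passed, median centring gave 2 and the plasma cell and skeletal muscle covariates 1 each. Leaving out 1 array at a time gave 0 to 2 genes for TNBS in wild type, 0 to 1 in the knockout, 0 to 3 for the untreated knockout, 1 to 4 for the knockout with TNBS and 0 to 0 for the difference.

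Same-numbered arrays of different groups had r of -0.34 to 0.29 over 31 pairs, with a median of 0.02 against 0.01 for other pairs. Whether the numbers pair samples is not stated in the labels, and these values cannot decide it. With the replicate block, 0 genes passed for the untreated knockout and 2 for the knockout with TNBS, and all-gene counts went from 1902 to 1230 and, for the difference, from 363 to 172.

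Over all genes, the share of calls that were higher was 62%, 47.8%, 60.4%, 35.7% and 31.1% in the 5 comparisons as deposited, 38.3%, 43.6%, 50%, 49.9% and 53.6% after quantile normalization, and 11.2%, 38.2%, 33.7%, 70.1% and 80.6% after median centring, which shifted all genes by -0.17, -0.03, -0.05, 0.09 and 0.14. Counts of all genes moved by over 1.5 times as follows. For TNBS in wild type they went from 2998 to 11471 (median centring), 4682 of 34958 (every probe set), 179 (plasma cell covariate) and 1139 (squamous). For TNBS in the knockout they went from 1556 to 856 (2 groups alone), 20 (plasma cell), 628 (squamous) and 687 (without knockout arrays 4 and 5), and for the untreated knockout from 879 to 288, 242 (plasma cell), 93 (skeletal muscle) and 391. For the knockout with TNBS they went from 1902 to 819 (plasma cell) and 3345 (every probe set), and for the difference from 363 to 547 (median centring) and 190 (without arrays 4 and 5). Leaving out 1 array gave 2250 to 3158, 1014 to 1835, 458 to 1021, 1391 to 2106 and 213 to 443. Other named genes turned sign after a call in 6 cases: with the plasma cell covariate Derl3 read -0.077 and -0.073 for TNBS in wild type and knockout, Mzb1 -0.205 and Irf4 -0.101, and with the mean of probe sets Erlec1 read 0.075 and Ssr4 -0.025.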
